A study of Mus musculus with 9 samples.

Results

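The genes described are 40 genes of the autophagy machinery, chosen by symbol for their known roles. The choice was made with earlier results of these data known. All 40 had a row among the 55359 genes of the deposited mouse lung table, and all 40 were among the 15459 genes tested. By role they comprised 5 genes of initiation, 7 of nucleation, 5 of membrane supply, 10 of the conjugation systems, 5 of the LC3 family, 7 cargo receptors and 1 gene of fusion with the lysosome.

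Lungs of male C57BL/6J mice were taken 28 days after an instillation into the trachea, and poly(A) RNA was sequenced. The mice were 6 to 8 weeks of age. In the Silica + ATL-III group the instillation carried 5 mg of silica, a mineral dust that scars the lung, and the mice were also injected into the abdomen with atractylenolide III (ATL-III), a plant sesquiterpene lactone, at 30 mg/kg per day. The Silica group received the same silica without ATL-III, and the Control group received saline into the trachea. The labels mention no injected vehicle for Silica or Control mice and do not give the days on which ATL-III was injected. Each group held 20 mice, of which 3 libraries per group were analysed. Whether each library stands for 1 mouse is not stated in the labels, and the p-values therefore measure only the spread among these libraries, which may be in part technical. The study's title asks about autophagy dysfunction and about signalling from the epidermal growth factor receptor to the kinase mTOR in silicosis.

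Autophagy encloses cytoplasm in a growing double membrane, which closes into an autophagosome and fuses with the lysosome. A kinase complex held in check by mTOR starts the process, a lipid kinase complex marks the site, and lipid transfer and scrambling proteins feed the membrane. Ubiquitin-like conjugation enzymes then attach the LC3 and GABARAP proteins to it, and cargo receptors tether aggregates, mitochondria and other freight to those proteins. In the lung the pathway is best known from macrophages that take up particles and from epithelial cells under stress. Transcript levels do not measure how much material the pathway degrades.

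Total counts ran from 16047175 to 17792481 per library. Correlations of log2 values lay between 0.977 and 0.984 within groups and between 0.943 and 0.975 between groups, and no 2 libraries held the same values. The lung label was checked against 10 epithelial markers such as surfactant protein C. All 10 were tested and none was at 0 in a whole group, with a summed level of 112920 to 122270 FPKM in Silica + ATL-III, 68014 to 112520 FPKM in Silica and 95622 to 110730 FPKM in Control libraries. Scaling bore on the balance of calls over all tested genes. With TMM scaling 53.8% of the genes called in Silica against Control were higher, and 57.7% in Silica + ATL-III against Control. With library totals alone the same shares were 33.0% and 34.6%.

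Among the 40 genes, most calls were found between Silica + ATL-III and Silica. There 12 genes were higher in Silica + ATL-III (30.0% of the 40, against 11.2% of all tested genes) and 4 were lower (10.0%, against 10.0% of all tested genes). The higher genes were Ulk1, Pik3c3, Atg2a, Atg9a, Wipi1, Wipi2, Atg4d, Map1lc3b, Gabarapl1, Tax1bp1, Calcoco1 and Bnip3, and the lower ones Atg4a, Atg5, Atg10 and Bnip3l. Between Silica + ATL-III and Control 11 genes were higher (27.5%, against 9.14% of all tested genes) and 0 lower (against 6.71%). EdgeR's unadjusted p was under 0.05 for 2 genes with lower values against Control, Ulk2 and Atg4a, and DESeq2 called 1 gene lower, Ulk2. Both limma fits, which use FPKM scaled by library totals, called Ulk2 and Atg4a lower. Between Silica and Control 2 genes were higher, Atg5 and Gabarap (5.00%, against 9.11% of all tested genes), and 1 was lower, Ulk1 (2.50%, against 7.81%).

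The median log2 fold change of the 40 genes was 0.22 for Silica + ATL-III against Silica, where 27 of the 40 were positive, and 0.19 against Control, where 32 were positive. It was 0.05 for Silica against Control, where 21 were positive. Over all tested genes the medians were -0.00034, -0.0099 and -0.013 for the same 3 comparisons. Each pair of comparisons shares 3 libraries, so their values are given side by side and are not independent. The largest fold change among the 40 genes was that of Atg9a, 2.02-fold for Silica + ATL-III against Silica. The heat map of levels in each library and the plot of fold changes show the whole set.

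**Figure D1:**
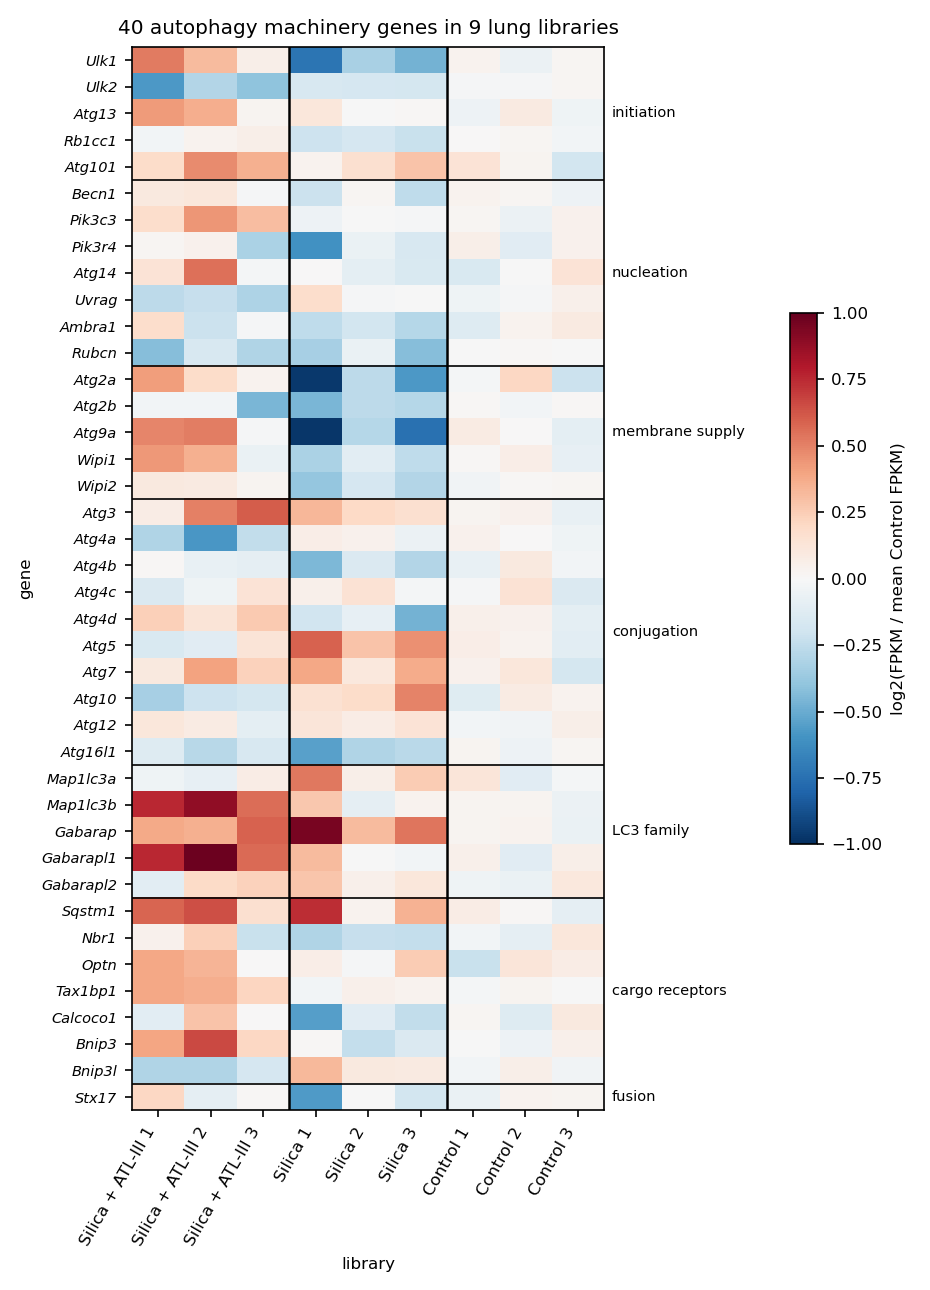
Levels of the 40 genes in the 9 libraries, as the log2 ratio of each library's FPKM to the mean of the 3 Control libraries, with genes down the page by role and libraries across by group (Silica + ATL-III, Silica, Control). Map1lc3b and Gabarapl1 are high in all 3 Silica + ATL-III libraries, while Atg9a and Atg2a are lowest in Silica library 1.

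**Figure D2:**
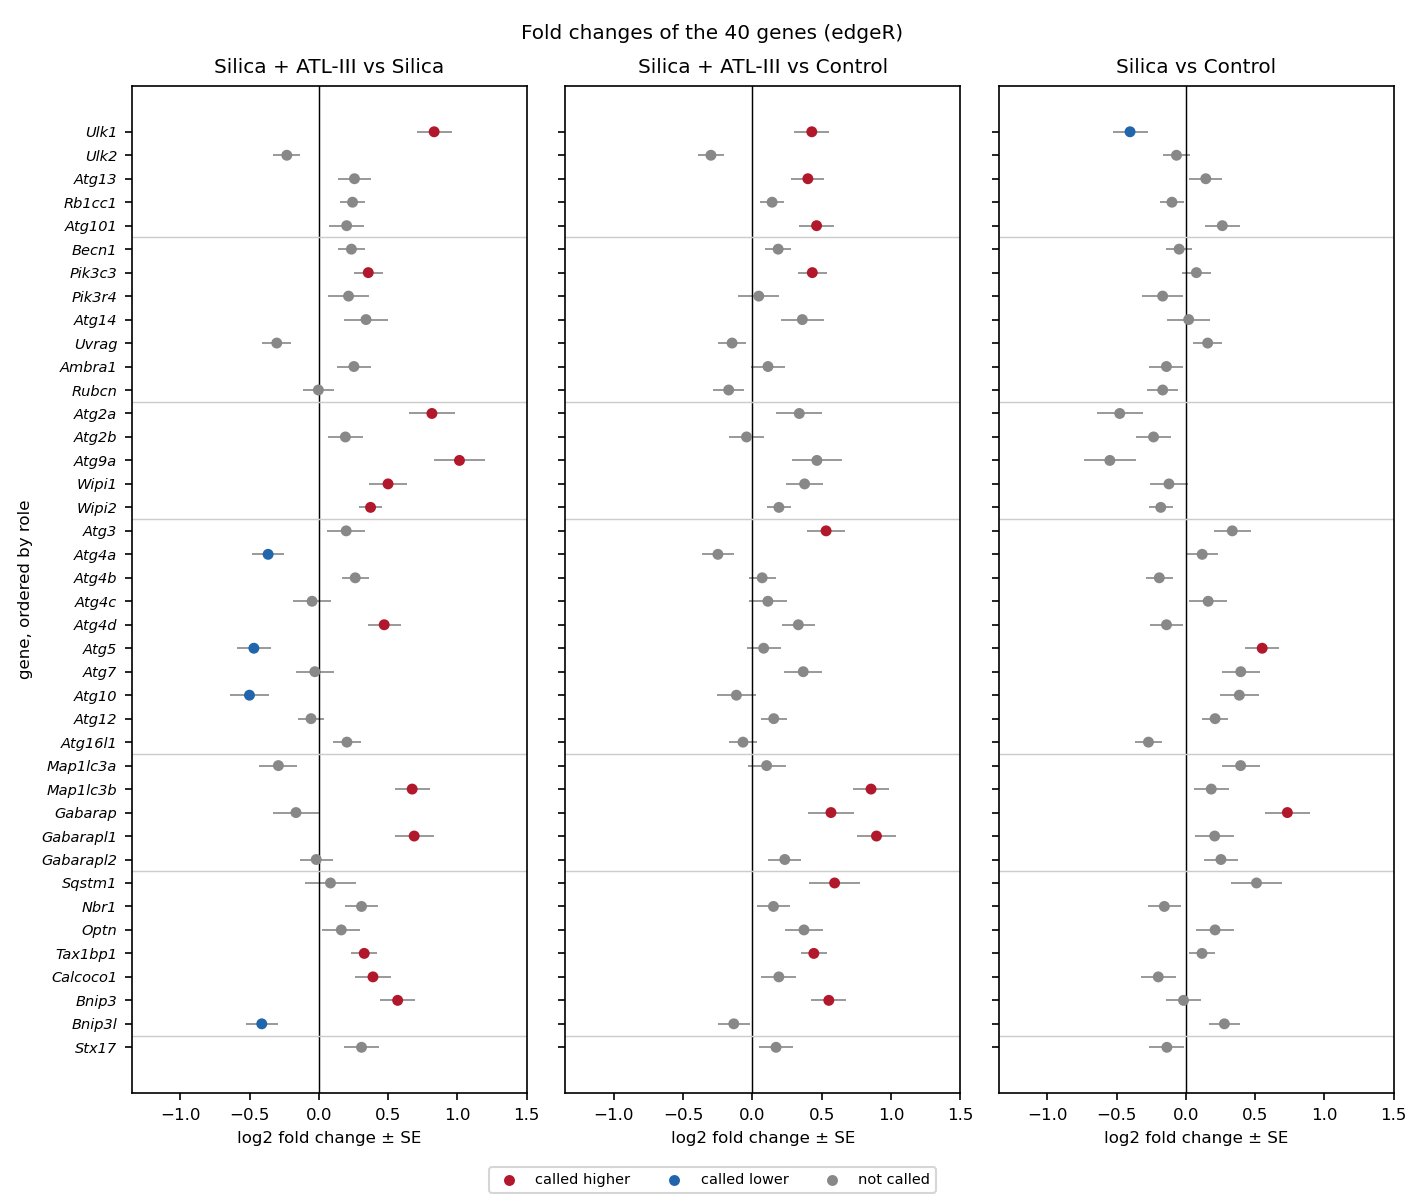
Log2 fold change (x axis, points) with its standard error (bars) for each of the 40 genes in the 3 comparisons, from edgeR. Red marks genes called higher in the first-named group, blue genes called lower and grey genes not called: 12 red and 4 blue against Silica, 11 red and 0 blue for Silica + ATL-III against Control, 2 red and 1 blue for Silica against Control.

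In the initiation complex 1 of 5 genes was higher in Silica + ATL-III than in Silica, and 3 of 5 were higher than in Control. Over all tested genes these shares were 11.2% and 9.14%. Ulk1, the kinase that starts autophagy and a substrate of mTOR, lies on chromosome 5. It stood at 10.7, 9.28 and 7.77 FPKM in Silica + ATL-III, at 4.49, 5.96 and 5.39 FPKM in Silica and at 7.63, 7.17 and 7.58 FPKM in Control libraries. The 3 groups did not overlap, with Silica + ATL-III highest and Silica lowest. Its log2 fold change was 0.83 ± 0.13 against Silica (1.78-fold, adjusted p = 0.0011). For Silica + ATL-III against Control it was 0.43 ± 0.13 (adjusted p = 0.037), and for Silica against Control -0.40 ± 0.13 (adjusted p = 0.048). The call against Silica held whichever library was left out (adjusted p at most 0.0073). The call of Silica + ATL-III against Control did not hold without Control 1, 2 or 3 or Silica + ATL-III 1 or 2 (adjusted p up to 0.12). It was also lost with library totals alone, with either limma fit and with a replicate block. That of Silica against Control did not hold without any 1 of the Control libraries, Silica 1 or 3, or Silica + ATL-III 2 (up to 0.18). This call was also lost with RLE size factors, with a replicate block and with GC content and length corrected for.

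Atg13, the adaptor that joins ULK kinases to their scaffold, and Atg101, which stabilises Atg13, were called against Control alone with all 9 libraries. Atg13 had 10.4, 9.91 and 7.85 FPKM in Silica + ATL-III, 8.35, 7.68 and 7.78 FPKM in Silica and 7.43, 8.20 and 7.50 FPKM in Control libraries. Its Silica + ATL-III and Control libraries overlapped, and the log2 fold change was 0.40 ± 0.12 (adjusted p = 0.040). Without Silica + ATL-III 3, Atg13 was called higher in Silica + ATL-III than in Silica (log2 fold change 0.36, adjusted p = 0.035). Atg101 had 15.3, 18.7 and 17.2 FPKM in Silica + ATL-III, 13.8, 15.1 and 16.4 FPKM in Silica and 14.8, 13.7 and 11.8 FPKM in Control libraries. All 3 Silica + ATL-III values lay above the Control values (log2 fold change 0.46 ± 0.13, adjusted p = 0.027). The Atg13 call did not hold without any 1 of the Control libraries, Silica 3 or Silica + ATL-III 1 or 2 (adjusted p up to 0.13), and the Atg101 call did not hold without Control 2 or 3 or Silica + ATL-III 2 (up to 0.12). Both calls were also lost with library totals alone, with either limma fit, with a replicate block and with GC content and length corrected for. Ulk2, the paralogue of Ulk1, went the other way without a call by edgeR: it had 12.8, 15.6 and 14.5 FPKM in Silica + ATL-III, 17.1, 17.0 and 16.9 FPKM in Silica and 18.9, 19.0 and 19.4 FPKM in Control libraries. All Silica + ATL-III values of Ulk2 lay below those of both other groups (edgeR adjusted p = 0.11 against Silica and 0.056 against Control), and DESeq2 and both limma fits called it lower than in Control. Rb1cc1, the scaffold known as FIP200, was not called by edgeR in any comparison (smallest adjusted p = 0.069, against Silica), although DESeq2 called it higher in Silica + ATL-III than in Silica.

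Of the 7 nucleation genes, which build or steer the class III phosphatidylinositol 3-kinase complex, 1 was called. It was higher in Silica + ATL-III than in Silica and than in Control (11.2% and 9.14% of all tested genes were). Pik3c3, the lipid kinase itself (also known as Vps34), had 6.10, 7.34 and 6.70 FPKM in Silica + ATL-III, 5.22, 5.38 and 5.35 FPKM in Silica and 5.48, 5.18 and 5.56 FPKM in Control libraries. Silica and Control overlapped, and all Silica + ATL-III values lay above both. It had a log2 fold change of 0.36 ± 0.11 against Silica (1.28-fold, adjusted p = 0.033) and 0.43 ± 0.11 against Control (1.35-fold, adjusted p = 0.016). The call against Silica held only without Control 2 or Silica + ATL-III 1, and not without any of the other 7 libraries (adjusted p up to 0.12). That against Control did not hold without any 1 of the Control libraries or Silica + ATL-III 2 (up to 0.068). The call against Silica was also lost with no filter, in the fit of 6 libraries and with a replicate block. That against Control was lost with library totals alone and with either limma fit.

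Becn1, which encodes Beclin 1, the regulatory subunit of that complex, was measured at 15.9, 16.1 and 14.7 FPKM in Silica + ATL-III, 12.8, 15.1 and 12.5 FPKM in Silica and 15.2, 15.0 and 14.4 FPKM in Control libraries. The groups overlapped in each comparison. Its log2 fold change was 0.23 ± 0.10 against Silica (adjusted p = 0.099), 0.19 ± 0.09 for Silica + ATL-III against Control (0.21) and -0.05 ± 0.10 for Silica against Control (0.75). Without Silica 2, its highest Silica library, Becn1 was called higher in Silica + ATL-III than in Silica (log2 fold change 0.30, adjusted p = 0.042). Of the exonic bases of Becn1, 43.9% overlap Cntd1 on the other strand, which was measured at 0.18 to 0.68 FPKM. Pik3r4, Atg14, Ambra1 and the inhibitor Rubcn were not called anywhere. Uvrag, which joins Beclin 1 in a complex apart from that of Atg14, had 3.44, 3.52 and 3.32 FPKM in Silica + ATL-III, against 4.66, 4.08 and 4.10 FPKM in Silica libraries. Those groups did not overlap, and the adjusted p was 0.056.

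Membrane supply held the highest share of calls: 4 of 5 genes were higher in Silica + ATL-III than in Silica (11.2% of all tested genes were). The median log2 fold change over the 5 was 0.50. EdgeR called none for Silica + ATL-III against Control (3 had an unadjusted p under 0.05, and DESeq2 and limma called 0) or for Silica against Control (2 had, DESeq2 called 2 and limma 0). Over all 15459 tested genes, edgeR's unadjusted p was under 0.05 for 4670 and 5382 in the same 2 comparisons. Atg9a, the lipid scramblase whose vesicles seed the membrane, had 3.26, 3.33 and 2.31 FPKM in Silica + ATL-III, 1.19, 1.91 and 1.39 FPKM in Silica and 2.47, 2.34 and 2.18 FPKM in Control libraries. The Silica values lay below both other groups, which overlapped each other. Against Silica the log2 fold change was 1.01 ± 0.18 (2.02-fold, adjusted p = 0.0032). Its exons share 31.8% of their bases with Gm29253, which had no more than 2 counts in any library.

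Atg2a, a bridge that carries lipid into the growing membrane, had 4.98, 4.25 and 3.82 FPKM in Silica + ATL-III, 1.91, 3.12 and 2.51 FPKM in Silica and 3.68, 4.31 and 3.22 FPKM in Control libraries. It showed the same order of groups as Atg9a, with a log2 fold change of 0.82 ± 0.17 against Silica (1.76-fold, adjusted p = 0.0058). For Silica against Control, Atg2a and Atg9a had log2 fold changes of -0.48 ± 0.17 (adjusted p = 0.068) and -0.55 ± 0.19 (0.062). DESeq2 called both lower in Silica (adjusted p = 0.048 and 0.042), and so did edgeR without Silica 2 (0.020 and 0.016). EdgeR made the same calls with library totals alone (0.045 and 0.041) and with no filter (0.021 and 0.030). Without Silica + ATL-III 3 edgeR also called Atg9a lower in Silica than in Control (adjusted p = 0.043) and higher in Silica + ATL-III than in Control (0.034). With all 9 libraries Atg9a was not called for Silica + ATL-III against Control (log2 fold change 0.47 ± 0.18, adjusted p = 0.11).

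The WIPI proteins bind the phosphatidylinositol 3-phosphate made by the Pik3c3 complex. Wipi1 had 6.17, 5.85 and 4.37 FPKM in Silica + ATL-III, 3.67, 4.25 and 3.84 FPKM in Silica and 4.61, 4.78 and 4.31 FPKM in Control libraries. Wipi2 had 6.06, 6.04 and 5.78 FPKM in Silica + ATL-III, 4.34, 5.04 and 4.64 FPKM in Silica and 5.54, 5.72 and 5.75 FPKM in Control libraries. Both had every Silica FPKM below every value of the other 2 groups. For Silica against Control neither was called, with log2 fold changes of -0.12 ± 0.14 for Wipi1 (adjusted p = 0.56) and -0.18 ± 0.09 for Wipi2 (0.15). Against Silica the log2 fold change was 0.50 ± 0.14 for Wipi1 (adjusted p = 0.023) and 0.37 ± 0.09 for Wipi2 (0.010). The calls of Atg9a, Atg2a and Wipi2 held whichever library was left out (adjusted p up to 0.018, 0.026 and 0.041). The Wipi1 call did not hold without Silica 1 or 3 or Silica + ATL-III 1 or 2 (adjusted p up to 0.083) or in the fit of 6 libraries (0.052), and the Wipi2 call was lost once GC content and length were corrected for (0.062). Without Silica + ATL-III 3 Wipi1 was called higher in Silica + ATL-III than in Control (0.012). With all 9 libraries it was not (log2 fold change 0.38 ± 0.14, adjusted p = 0.082). Atg2b, the paralogue of Atg2a, was not called (log2 fold change 0.19 ± 0.13 against Silica, adjusted p = 0.30).

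Of 10 conjugation genes, 1 was higher and 3 were lower in Silica + ATL-III than in Silica (11.2% and 10.0% of all tested genes were). In addition 1 was higher in Silica + ATL-III than in Control (9.14% of all tested genes) and 1 was higher in Silica than in Control (9.11%), so the counts of higher genes lie near the background. Transcription factors of the MiT/TFE family, which drive autophagy and lysosome genes, bind the E box CACGTG and favour a T before it. RefSeq promoter windows of 300 bases (250 before and 50 after the start, build GRCm38.p6) were found for 33 of the 40 genes. On either strand CACGTG stood in 6 of those 33 (18.2%), against 2187 of 27025 genes (8.09%), and the longer TCACGTG, which contains it, in 4 (12.1%), against 4.29% of all genes. Those 4 were Atg14, Atg3, Atg7 and Rubcn, of which edgeR called Atg3 alone in any comparison. The 250 bases before the start of Atg3 (chr16:45158579-45158828, plus strand), Atg5 (chr10:44268089-44268338, plus strand) and Bnip3 (chr7:138909507-138909756, minus strand) follow, with the E box in capitals. They are shown because they are the genes called by edgeR with a match. Atg5 and Bnip3 hold the shorter motif and were added after their values were seen.
Atg3: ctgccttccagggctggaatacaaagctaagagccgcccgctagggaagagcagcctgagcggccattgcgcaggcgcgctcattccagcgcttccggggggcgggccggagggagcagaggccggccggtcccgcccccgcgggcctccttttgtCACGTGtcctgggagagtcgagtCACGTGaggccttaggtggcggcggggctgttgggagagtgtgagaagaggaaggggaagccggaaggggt
Atg5: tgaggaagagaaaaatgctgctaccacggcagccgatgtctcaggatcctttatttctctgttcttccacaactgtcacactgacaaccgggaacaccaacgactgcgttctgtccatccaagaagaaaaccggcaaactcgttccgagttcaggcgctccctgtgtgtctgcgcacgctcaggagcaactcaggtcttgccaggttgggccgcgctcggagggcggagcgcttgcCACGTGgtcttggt
Bnip3: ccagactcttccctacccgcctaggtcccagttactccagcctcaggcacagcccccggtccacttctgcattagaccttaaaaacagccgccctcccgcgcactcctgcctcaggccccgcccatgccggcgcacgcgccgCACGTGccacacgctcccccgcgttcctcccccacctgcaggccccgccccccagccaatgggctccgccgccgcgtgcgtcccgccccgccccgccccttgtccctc
Atg3 holds 2 E boxes, each with a T before it, the first beginning 94 bases before the start. The Atg5 and Bnip3 windows hold 1 each, beginning 14 and 108 bases before the start. A match describes these letters and does not show that a factor was bound.

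Atg3, the E2-like enzyme that passes LC3 to its lipid, had 29.1, 39.2 and 42.2 FPKM in Silica + ATL-III, 34.9, 31.9 and 30.9 FPKM in Silica and 28.2, 28.5 and 26.4 FPKM in Control libraries. Every value of both silica-treated groups lay above the Control values. A log2 fold change of 0.53 ± 0.14 was found for Silica + ATL-III against Control (1.45-fold, adjusted p = 0.020), and of 0.34 ± 0.14 for Silica against Control (adjusted p = 0.10). The call of Silica + ATL-III against Control did not hold without any 1 of the Control libraries or Silica + ATL-III 2 or 3 (adjusted p up to 0.083) or with either limma fit. Without Silica + ATL-III 1, Silica was called higher than Control (log2 fold change 0.35, adjusted p = 0.045), as it was in the fit of 6 libraries (0.34, 0.043).

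Atg5, which is joined to Atg12 to form the ligase of LC3, was higher in Silica than in both other groups. It had 18.4, 18.8 and 22.3 FPKM in Silica + ATL-III, 30.6, 24.8 and 27.9 FPKM in Silica and 21.4, 20.9 and 18.9 FPKM in Control libraries. No Silica value overlapped another group, and Silica + ATL-III overlapped Control. The log2 fold change was -0.47 ± 0.12 for Silica + ATL-III against Silica (0.722-fold, adjusted p = 0.020) and 0.55 ± 0.12 for Silica against Control (1.46-fold, adjusted p = 0.015). For Silica + ATL-III against Control it was 0.08 ± 0.12 (adjusted p = 0.70). The first call did not hold without Silica 1 or 3 or Silica + ATL-III 1 or 2 (adjusted p up to 0.074), and the second did not hold without Control 3 or Silica 1 (up to 0.069).

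Atg10, the E2-like enzyme that joins Atg12 to Atg5, had 5.22, 5.70 and 5.81 FPKM in Silica + ATL-III, 7.29, 7.48 and 9.26 FPKM in Silica and 6.03, 6.96 and 6.72 FPKM in Control libraries. Its 3 groups did not overlap in FPKM, with Silica highest, and the log2 fold change against Silica was -0.50 ± 0.14 (0.707-fold, adjusted p = 0.027). Atg10 was not called for Silica + ATL-III against Control (log2 fold change -0.12 ± 0.14, adjusted p = 0.63) or for Silica against Control (0.39 ± 0.14, 0.078). Atg7, the E1-like enzyme that activates both conjugation systems, had 3.20, 3.95 and 3.52 FPKM in Silica + ATL-III, 3.91, 3.23 and 3.87 FPKM in Silica and 3.09, 3.25 and 2.65 FPKM in Control libraries. Atg7 overlapped in every comparison and was not called by edgeR. Its log2 fold change was -0.03 ± 0.13 against Silica (adjusted p = 0.90), 0.37 ± 0.14 for Silica + ATL-III against Control (0.092) and 0.40 ± 0.14 for Silica against Control (0.064). Atg7 was called higher in Silica than in Control without Silica 2 (adjusted p = 0.021), by DESeq2 (0.044) and with GC content and length corrected for (0.031). The Atg10 call did not hold without Silica 3 or Silica + ATL-III 1 or 2 (adjusted p up to 0.12), with no filter on low values, in the fit of 6 libraries or with GC content and length corrected for (up to 0.090).

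The Atg4 proteases trim LC3 before it is joined to lipid and cut it off again afterwards. Against Silica 2 of the 4 genes were called, in opposite directions (21.2% of all tested genes were called either way). Atg4a, on chromosome X, had 10.3, 8.47 and 10.7 FPKM in Silica + ATL-III, 13.3, 13.1 and 12.2 FPKM in Silica and 13.1, 12.7 and 12.3 FPKM in Control libraries. All Silica + ATL-III values lay below both other groups (log2 fold change against Silica -0.37 ± 0.11, adjusted p = 0.039). That call held without Silica + ATL-III 3 but not without any of the other 8 libraries (adjusted p up to 0.14). It was also lost with no filter, in the fit of 6 libraries, with a replicate block and with GC content and length corrected for (up to 0.094). For Silica + ATL-III against Control, edgeR with TMM scaling and all 9 libraries did not call Atg4a (log2 fold change -0.25 ± 0.11, adjusted p = 0.16). With library totals alone Atg4a was called lower there (log2 fold change -0.37, adjusted p = 0.035). The same call was made by both limma fits (0.036 and 0.037) and with GC content and length corrected for (0.046). Atg4d had 4.58, 4.25 and 4.66 FPKM in Silica + ATL-III, 3.40, 3.67 and 2.80 FPKM in Silica and 4.02, 4.01 and 3.62 FPKM in Control libraries. Its Silica + ATL-III values lay above both other groups (log2 fold change against Silica 0.47 ± 0.12, adjusted p = 0.017). The Atg4d call did not hold without Silica 3 (adjusted p = 0.067) or with GC content and length corrected for (0.10). In the fit of 6 libraries Atg4d was called higher in Silica + ATL-III than in Control (log2 fold change 0.35, adjusted p = 0.036). With all 9 libraries it was not (log2 fold change 0.33 ± 0.12, adjusted p = 0.083). Of the exonic bases of Atg4d, 19.3% overlap Kri1 on the other strand, and Kri1 was itself higher in Silica + ATL-III than in Silica (log2 fold change 0.58, adjusted p = 0.027). Because no source says that counting used strand, the reads of these 2 genes cannot be told apart where they overlap. Atg4b, Atg4c, Atg12 and Atg16l1, which places the ligase on the membrane, were not called by edgeR in any comparison, and limma called Atg16l1 lower in Silica than in Control.

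In the LC3 family, the ubiquitin-like proteins that coat the membrane, 2 of 5 genes were higher in Silica + ATL-III than in Silica and 3 of 5 were higher than in Control. Over all tested genes these shares were 11.2% and 9.14%. Gabarap had the highest FPKM of all 40 genes, with 236, 232 and 273 FPKM in Silica + ATL-III, 350.3, 226 and 262 FPKM in Silica and 185, 186 and 173 FPKM in Control libraries. Both silica-treated groups lay above Control and overlapped each other. The log2 fold change of Gabarap was 0.73 ± 0.16 for Silica against Control (1.66-fold, adjusted p = 0.015) and 0.57 ± 0.16 for Silica + ATL-III against Control (1.48-fold, adjusted p = 0.036). Against Silica it was -0.17 ± 0.16 (adjusted p = 0.51). The call of Silica against Control did not hold without Control 3 (adjusted p = 0.063). That of Silica + ATL-III against Control did not hold when any 1 Control or Silica + ATL-III library was left out (up to 0.13), with library totals alone, with either limma fit or with GC content and length corrected for.

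Map1lc3b encodes LC3B, the usual marker of autophagosomes. It had 30.2, 33.2 and 26.5 FPKM in Silica + ATL-III, 21.6, 16.9 and 18.4 FPKM in Silica and 18.3, 18.4 and 17.3 FPKM in Control libraries. Gabarapl1, a GABARAP paralogue, had 114, 133 and 100 FPKM in Silica + ATL-III, 84.2, 67.4 and 66.1 FPKM in Silica and 69.8, 62.3 and 70.4 FPKM in Control libraries. In both genes all Silica + ATL-III values lay above the other 2 groups, which overlapped each other. The log2 fold change of Map1lc3b was 0.67 ± 0.13 against Silica (1.59-fold, adjusted p = 0.0038) and 0.86 ± 0.13 against Control (1.81-fold, adjusted p = 0.00089). That of Gabarapl1 was 0.69 ± 0.14 against Silica (1.61-fold, adjusted p = 0.0055) and 0.90 ± 0.14 against Control (1.86-fold, adjusted p = 0.0012). For Silica against Control the log2 fold changes were 0.18 ± 0.13 (adjusted p = 0.33) and 0.21 ± 0.14 (0.31). The 4 calls of these 2 genes held under every alternative run, library by library and setting by setting, with an adjusted p of at most 0.032. The other 2 genes, Map1lc3a and Gabarapl2, were not called by edgeR in any comparison, and DESeq2 called Map1lc3a higher in Silica than in Control. In Gabarapl1 28.3% of the exonic bases overlap 1700101I11Rik, which had 2 to 16 counts per library.

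Map1lc3b on chromosome 8 has a near-identical processed pseudogene, Gm6055 on chromosome 14, which matches its coding sequence over all 378 bases with 1 mismatch (99.7% identity). The mismatch, G206A counted from the A of the start codon, is in capitals in the coding stretch from base 176 to base 236, taken from the GENCODE transcripts of build GRCm38. It is shown because these letters are all that separates reads of the 2 genes within that sequence.
Map1lc3b: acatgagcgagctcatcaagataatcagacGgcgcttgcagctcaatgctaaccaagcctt
Gm6055: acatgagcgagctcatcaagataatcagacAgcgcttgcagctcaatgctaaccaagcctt
Gm6055 was given 17.8% as many counts as Map1lc3b. It had 127, 132 and 102 FPKM in Silica + ATL-III, 48.7, 61.8 and 47.7 FPKM in Silica and 68.8, 57.2 and 65.6 FPKM in Control libraries, and the Silica + ATL-III values lay above the rest. Its log2 fold change was 1.21 against Silica (adjusted p = 0.00024) and 1.03 against Control (0.00041). No source used here says how reads that match both were counted, and the split between them is uncertain. Against Silica and against Control the log2 fold changes of Silica + ATL-III were positive in both genes, and for Silica against Control that of Gm6055 was -0.18 (adjusted p = 0.38), where that of Map1lc3b was 0.18.

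**Figure D3:**
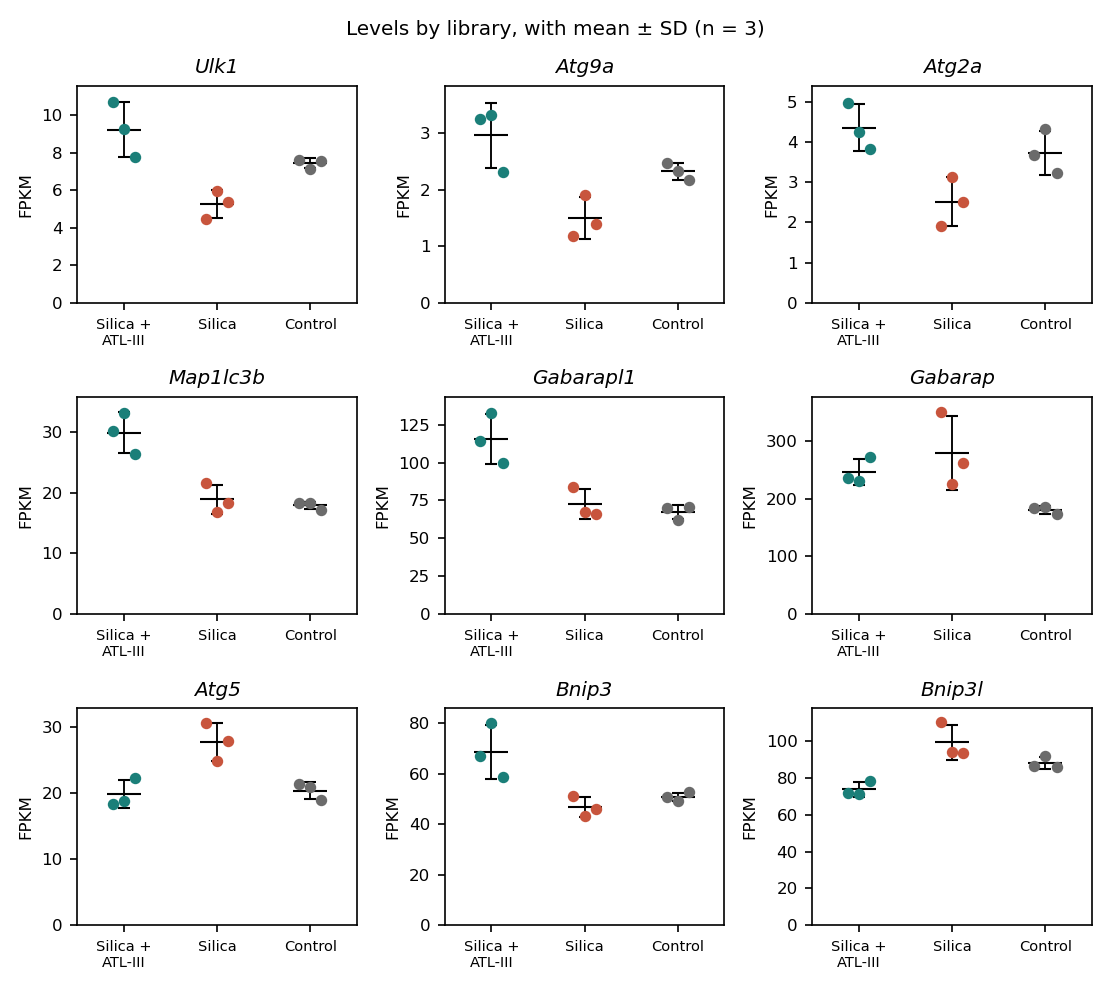
FPKM of 9 of the 40 genes in each library (points), with the mean (long line) and SD (bars) of the 3 libraries of each group, on axes that start at 0. Silica lies lowest for Ulk1, Atg9a and Atg2a, Silica + ATL-III lies highest for Map1lc3b, Gabarapl1 and Bnip3, Control lies lowest for Gabarap, and Silica lies highest for Atg5 and Bnip3l.

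Of the 7 cargo receptors, 3 were higher and 1 was lower in Silica + ATL-III than in Silica, and 3 were higher than in Control. Over all tested genes the shares were 11.2% higher and 10.0% lower against Silica, and 9.14% higher against Control. Sqstm1 encodes p62, which links ubiquitinated cargo to LC3 and is itself degraded by autophagy. It had 82.1, 85.8 and 61.4 FPKM in Silica + ATL-III, 91.5, 56.4 and 70.1 FPKM in Silica and 58.1, 55.3 and 51.6 FPKM in Control libraries. Silica + ATL-III lay above Control without overlap, while Silica overlapped both. The log2 fold change was 0.59 ± 0.18 for Silica + ATL-III against Control (1.51-fold, adjusted p = 0.047), 0.08 ± 0.18 against Silica (0.79) and 0.51 ± 0.18 for Silica against Control (0.074). Without Silica 2, its lowest Silica library, Sqstm1 was called higher in Silica than in Control (log2 fold change 0.68, adjusted p = 0.014). The same call was made without Silica + ATL-III 3 (0.0497), by DESeq2 (0.029) and by edgeR with no filter (0.0021). The call of Silica + ATL-III against Control did not hold without any 1 of the Control libraries, Silica 3 or Silica + ATL-III 1 or 2 (adjusted p up to 0.15), with library totals alone, with either limma fit or with GC content and length corrected for.

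Tax1bp1 and Calcoco1 belong to the family of cargo receptors that also holds NDP52. Tax1bp1 had 45.1, 44.4 and 39.9 FPKM in Silica + ATL-III, 33.7, 35.7 and 35.3 FPKM in Silica and 34.0, 35.1 and 34.3 FPKM in Control libraries. Its Silica + ATL-III values lay above the other groups, which overlapped, with a log2 fold change of 0.33 ± 0.10 against Silica (adjusted p = 0.031) and 0.44 ± 0.10 against Control (0.0084). Calcoco1 had 13.5, 17.7 and 14.6 FPKM in Silica + ATL-III, 9.91, 13.4 and 12.2 FPKM in Silica and 14.7, 13.3 and 15.5 FPKM in Control libraries. Its Silica + ATL-III values lay just above the Silica values (log2 fold change 0.39 ± 0.13, adjusted p = 0.047) and overlapped Control. The Tax1bp1 call against Control held whichever library was left out. That against Silica did not hold without Control 1 or 3, Silica 3 or Silica + ATL-III 1 or 2 (adjusted p up to 0.092). It was also lost with no filter, in the fit of 6 libraries and with a replicate block. When 1 library was left out, the Calcoco1 call held only without Silica 2 or Silica + ATL-III 1 (up to 0.18 without the others). It was lost with library totals alone, with either limma fit, in the fit of 6 libraries, with a replicate block and with GC content and length corrected for. Nbr1 and Optn were not called by edgeR in any comparison.

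Bnip3 and Bnip3l (also called Nix) are outer mitochondrial membrane receptors for the removal of mitochondria, both known as targets of hypoxia signalling, and they were called against Silica in opposite directions. Bnip3 had 66.9, 80.0 and 58.7 FPKM in Silica + ATL-III, 51.1, 43.0 and 45.9 FPKM in Silica and 50.7, 49.0 and 52.5 FPKM in Control libraries. Its Silica + ATL-III values lay above both other groups, with log2 fold changes of 0.57 ± 0.13 against Silica (1.48-fold, adjusted p = 0.0088) and 0.55 ± 0.13 against Control (1.47-fold, adjusted p = 0.011). Both calls held whichever library was left out (adjusted p up to 0.047), and that against Control was lost with GC content and length corrected for (0.052). AC160336.1 is a long noncoding RNA gene on chromosome 14, 98.3% identical to Bnip3 over 858 bases. Over its whole length it had 24.7% as many counts. It was measured at 0.12, 0.15 and 0.26 FPKM in Silica + ATL-III, 0.11, 0.43 and 0.37 FPKM in Silica and 0.60, 0.52 and 0.44 FPKM in Control libraries, with Silica + ATL-III below Control where Bnip3 was above it. Counts that high at FPKM so low mean that the exons of AC160336.1 are far longer than the 858 shared bases. How many of its counts lay in that stretch, and how shared reads were split, is uncertain. Bnip3l had 71.8, 71.6 and 78.6 FPKM in Silica + ATL-III, 111, 94.2 and 94.0 FPKM in Silica and 86.7, 92.0 and 85.9 FPKM in Control libraries. The 3 groups of Bnip3l did not overlap, with Silica highest and Silica + ATL-III lowest. Against Silica its log2 fold change was -0.41 ± 0.11 (0.751-fold, adjusted p = 0.024), against Control -0.13 ± 0.11 (0.47), and for Silica against Control 0.28 ± 0.11 (0.11). The Bnip3l call did not hold without Silica 1 or Silica + ATL-III 1 or 2 (adjusted p up to 0.083) or in the fit of 6 libraries (0.073). Bnip3l-ps, a pseudogene 99.4% identical over 1131 bases, had 4.68% as many counts and was also lower in Silica + ATL-III than in Silica (log2 fold change -0.41, adjusted p = 0.046).

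Bnip3l is known as a red cell gene too, since it clears mitochondria from maturing red cells. The summed level of 9 red cell markers was 1146, 5788 and 5634 FPKM in Silica + ATL-III, 5032, 8592 and 5578 FPKM in Silica and 6286, 6755 and 5071 FPKM in Control libraries. Silica + ATL-III 1 had the lowest sum of red cell markers. The part of red cells in the Bnip3l values was not tested. Stx17, the SNARE protein that lets the closed autophagosome fuse with the lysosome, was not called in any comparison. It had 12.8, 10.4 and 11.2 FPKM in Silica + ATL-III, 7.50, 11.04 and 9.78 FPKM in Silica and 10.6, 11.4 and 11.3 FPKM in Control libraries (log2 fold change 0.31 ± 0.13 against Silica, adjusted p = 0.10).

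Levels of the 40 genes ranged from 1.19 FPKM for Atg9a to 350.3 FPKM for Gabarap, both in Silica library 1. The median coefficient of variation over the 40 genes was 10.7% in Silica + ATL-III, 9.59% in Silica and 5.37% in Control libraries. The widest spread was that of Atg14 in Silica + ATL-III (21.2%), Atg9a in Silica (24.8%) and Atg2a in Control (14.6%). Among the Silica + ATL-III libraries, library 3 was the lowest for 20 of the 40 genes and the highest for 11. Whichever library was left out, 7 of the 16 calls against Silica held throughout (Ulk1, Atg2a, Atg9a, Wipi2, Map1lc3b, Gabarapl1 and Bnip3), as did 4 of the 11 calls of Silica + ATL-III against Control (Map1lc3b, Gabarapl1, Tax1bp1 and Bnip3) and 0 of the 3 of Silica against Control.

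Beyond the 40 genes, 45 further genes with known roles in autophagy were listed, of which 44 were tested. In Silica + ATL-III 2 of the 44 were higher and 4 lower than in Silica (11.2% and 10.0% of all tested genes were), and 4 were higher and 2 lower than in Control (9.14% and 6.71%). In Silica 3 were higher and 1 was lower than in Control (9.11% and 7.81%). These shares lie near or below those of all tested genes and show nothing particular to the list. These counts moved with single libraries, to between 1 and 7 higher and 0 and 5 lower against Silica, between 2 and 6 higher and 1 and 4 lower against Control, and between 1 and 8 higher and 1 and 3 lower for Silica against Control. Trp53inp1, a p53 target that binds LC3, had 89.9, 81.1 and 51.0 FPKM in Silica + ATL-III, 33.3, 31.5 and 34.5 FPKM in Silica and 40.9, 50.0 and 47.9 FPKM in Control libraries. All its Silica + ATL-III values lay above both other groups (log2 fold change 1.18 ± 0.18 against Silica, adjusted p = 0.0011, and 0.80 ± 0.18 against Control, 0.0097), and both calls held whichever library was left out. Vmp1, an endoplasmic reticulum scramblase that works with Atg2 proteins, was higher in Silica + ATL-III than in Control at 82.5, 68.9 and 83.5 FPKM, against 54.8, 55.0 and 52.0 FPKM (log2 fold change 0.66 ± 0.14, adjusted p = 0.0076), whichever library was left out. Ccpg1 and Retreg1, receptors for removal of endoplasmic reticulum, were called higher in Silica + ATL-III, Ccpg1 against Silica (log2 fold change 0.84 ± 0.23, adjusted p = 0.024) and Retreg1 against Control (0.46 ± 0.12, 0.025). The Ccpg1 call did not hold without Silica 1 or 3 or Silica + ATL-III 1 or 2 (adjusted p up to 0.094), and the Retreg1 call did not hold without any 1 of the Control libraries or Silica + ATL-III 1 or 2 (up to 0.093).

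Among regulators, Mitf, a MiT/TFE transcription factor, was higher in Silica than in both other groups. It had 4.27, 3.08 and 3.48 FPKM in Silica + ATL-III, 6.14, 5.05 and 5.22 FPKM in Silica and 3.09, 3.51 and 3.82 FPKM in Control libraries. The log2 fold change of Mitf was -0.58 ± 0.15 for Silica + ATL-III against Silica (adjusted p = 0.017) and 0.76 ± 0.15 for Silica against Control (0.0085). The first call did not hold without Silica 1 or Silica + ATL-III 2 (adjusted p up to 0.073). Its relatives Tfeb and Tfe3, named here for comparison after their values were seen, were not called in any comparison (smallest adjusted p = 0.21 and 0.12). Zkscan3, a repressor of autophagy genes known from human cells, had 22.6, 25.4 and 23.3 FPKM in Silica + ATL-III, 17.6, 24.9 and 22.1 FPKM in Silica and 33.5, 41.1 and 38.5 FPKM in Control libraries. Both silica-treated groups lay below Control (log2 fold change -0.54 ± 0.12 for Silica + ATL-III, adjusted p = 0.011, and -0.71 ± 0.12 for Silica, 0.0046), whichever library was left out. Tmem41b, a scramblase like Vmp1, and Fundc1, a mitochondrial receptor, had the pattern of Mitf. Tmem41b had log2 fold changes of -0.42 ± 0.10 for Silica + ATL-III against Silica (adjusted p = 0.012) and 0.36 ± 0.10 for Silica against Control (0.032), and Fundc1 of -0.36 ± 0.10 (0.024) and 0.34 ± 0.10 (0.039). The calls of both for Silica against Control did not hold without any 1 of the Control libraries or Silica 1 or 3 (adjusted p up to 0.13). Against Silica the Tmem41b call did not hold without Silica + ATL-III 2 (0.051), and the Fundc1 call did not hold without Silica 1 or Silica + ATL-III 1 or 2 (up to 0.090). Atg16l2, a relative of Atg16l1, was lower in Silica + ATL-III than in Control (-0.53 ± 0.15, adjusted p = 0.036), a call lost without any 1 of the Control libraries, Silica 3 or Silica + ATL-III 1 or 2 (up to 0.13).

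The libraries were made from whole lung, where fewer cells of a type and less RNA per cell cannot be told apart, and markers of several cell types moved along with the genes above. Of 14 neutrophil markers 12 were tested, and all 12 were higher in Silica + ATL-III than in Silica and than in Control. Their summed level was 29832 to 45309 FPKM in Silica + ATL-III, 732 to 4507 FPKM in Silica and 556 to 3880 FPKM in Control libraries. Of 13 macrophage markers 8 were lower in Silica + ATL-III than in Silica, 8 were higher than in Control (5 without Control 2 or 3), and 11 were higher in Silica than in Control. The macrophage sum was 9625 to 13304 FPKM in Silica + ATL-III, 15402 to 20883 FPKM in Silica and 7444 to 9519 FPKM in Control libraries. All 8 B cell markers were lower in Silica + ATL-III than in both other groups, with a sum of 8.06 to 21.1 FPKM in Silica + ATL-III, 40.4 to 70.3 FPKM in Silica and 31.6 to 72.0 FPKM in Control libraries. Of 8 endothelial markers 5 were higher in Silica + ATL-III than in Silica (3 when any 1 library other than Silica 2 or Silica + ATL-III 1 was left out), with a sum of 332 to 421 FPKM in Silica + ATL-III, 230 to 299 FPKM in Silica and 373 to 389 FPKM in Control libraries. Of 8 fibroblast markers 5 were lower in Silica + ATL-III than in Silica and 6 lower than in Control, with a sum of 681 to 1235 FPKM in Silica + ATL-III, 1056 to 1301 FPKM in Silica and 1617 to 1880 FPKM in Control libraries. All 8 striated muscle markers tested (of 10) were lower in Silica + ATL-III than in Control and 7 were lower in Silica, with a sum of 48.5 to 88.8 FPKM in Silica + ATL-III, 66.5 to 85.5 FPKM in Silica and 139 to 161 FPKM in Control libraries. The count of 8 fell to between 4 and 5 without Control 3 or Silica + ATL-III 1 or 3, and the count of 7 to 4 without Silica 1 or 3. Of 7 smooth muscle markers 5 were lower in Silica than in Control (3 without Silica 1 or 3 or any 1 of the Control libraries), with a sum of 55.9 to 75.9 FPKM in Silica + ATL-III, 49.8 to 61.0 FPKM in Silica and 92.9 to 104 FPKM in Control libraries. Of 10 epithelial markers 3 were higher in Silica than in Control (1 to 4 when 1 library was left out). In Silica + ATL-III 2 epithelial markers were lower than in Silica and 1 was higher than in Control, whichever library was left out. Of the endothelial markers 3 were lower in Silica than in Control (2 to 5 when 1 library was left out). No list had a marker at 0 in every library of a group. The part of these shifts in the levels of the 40 genes was not tested.

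Transcript length and base composition also moved with the calls against Silica. The 12 genes higher in Silica + ATL-III than in Silica had a median exonic length of 6125 bases and a median GC content of 52.5%, and the 4 lower genes 2682 bases and 42.0%. The genes called neither way had medians of 6050 bases and 50.2%. Over all genes tested, the log2 level of the longest 20% of genes relative to the shortest 20%, set against the mean library, was 0.01, 0.08 and -0.21 in Silica + ATL-III, -0.25, -0.07 and -0.08 in Silica and 0.12, 0.12 and 0.19 in Control libraries. Long genes had relatively lower levels in Silica than in Control libraries, most of all in Silica 1. For the 20% of genes with the highest GC content relative to the 20% with the lowest, the same measure was 0.10, 0.18 and 0.04 in Silica + ATL-III, -0.10, -0.10 and -0.04 in Silica and 0.04, -0.07 and -0.05 in Control libraries. The GC values of Silica + ATL-III lay above all Silica values, while the length values of those groups overlapped. With the trend on GC content and length removed, a correction added after seeing the data, 11 of the 16 calls of Silica + ATL-III against Silica, 6 of the 11 against Control and 2 of the 3 of Silica against Control were kept. The share of the length and GC trend in any single gene's value was not tested beyond that correction.

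**Figure D4:**
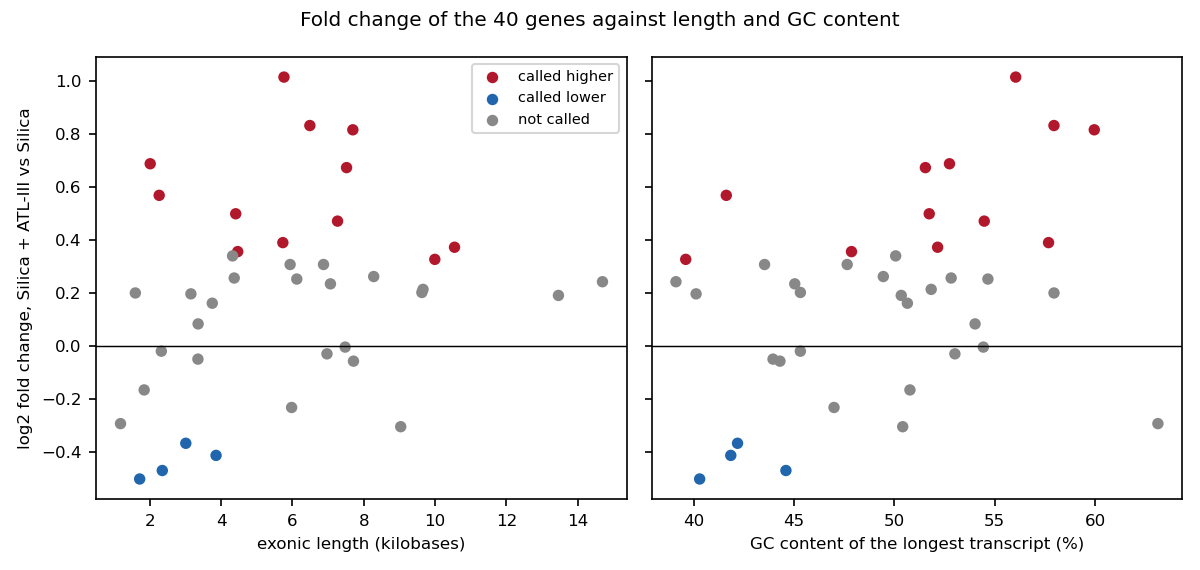
Log2 fold change of the 40 genes for Silica + ATL-III against Silica (y axis, points) against exonic length in kilobases (left) and GC content of the longest transcript in percent (right). Red marks the 12 genes called higher, blue the 4 called lower and grey the 24 not called. The 4 lower genes lie at 3859 bases or less and at a GC content of 44.6% or less.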

How the data were processed

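Per the labels' protocols, RNA of 9 lung samples was selected for poly(A), fragmented and copied from random primers. The submitters' processing notes name HISAT2 2.0.1, HTSeq 0.6.1, cutadapt 1.9.1 and the build mm10. No source used here says whether strand entered the counting. The authors deposited whole-number read counts per gene, not normalized, with FPKM computed from them; recomputing FPKM from counts, exonic length and column totals gave 100% of the deposited values within 0.006. FPKM are printed as deposited, so their ratios can differ from the TMM-scaled fold changes. Positions in the table did not match the reference annotation, and chromosomes alone are taken from it.

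Genes at 1 FPKM or more in 3 or more libraries entered edgeR 4.0.16 (R 4.3.3), quasi-likelihood F test, TMM scaling, 3 group means in 1 fit of 9 libraries (6 residual degrees of freedom). Calls are genes with a p below 0.05 after Benjamini-Hochberg adjustment over all 15459. All adjusted p-values in the text are from this fit unless another is named. Standard errors are the log2 fold change over the square root of F. Alternatives were DESeq2 1.42.0, other scalings, no filter, limma 3.58.1 on log2(FPKM + 0.5) or log2(FPKM + 0.1), fits of 6 libraries, a replicate block, each library left out, and a correction for GC content and length. Scripts were tested on simulated data. Copies were found with BLAST 2.17.0 (at least 95% identity over 200 bases).

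Given with every library's value are 23 members, those called in any comparison together with Ulk1, Becn1, Atg5, Atg7, Map1lc3b and Sqstm1, called or not; of the other autophagy genes, the 3 called with the smallest p in each direction are named. Other genes with values by library were added after those values were seen. The members and lists were chosen with earlier results of these data known.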

Additional observations from a re-analysis of the deposited data

How the results depend on the processing

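No called fold change among the 40 genes changed sign under any alternative run. The counts of called genes moved more, and the cause was not tested. For Silica + ATL-III against Silica, the 12 higher genes became 7 to 14 and the 4 lower genes 0 to 5 when 1 library was left out, and 1924 to 3877 genes were called in place of 3279. The 12 higher and 4 lower genes became 8 and 1 in a fit of the 6 libraries, and 10 and 2 with no filter on low values. They became 9 and 3 with the replicate block, and 10 and 4 with GC content and length corrected for. For Silica + ATL-III against Control, leaving out 1 library gave 4 to 12 higher genes in place of 11, 0 to 1 lower in place of 0, and 1474 to 2864 calls in place of 2451. The 11 higher genes became 5 with library totals alone, 4 with either limma fit and 7 with GC content and length corrected for. The limma fits use FPKM, which are also scaled by library totals, so these are not separate checks of the scaling. The 0 lower genes became 1 with DESeq2, 2 with library totals alone, 2 with either limma fit and 1 with GC content and length corrected for. For Silica against Control, leaving out 1 library gave 0 to 5 higher genes in place of 2, 0 to 3 lower in place of 1, and 862 to 3944 calls in place of 2615. The 2 higher genes became 5 with DESeq2 and 4 with no filter. The 1 lower gene became 3 with DESeq2, 0 with RLE size factors, 4 with library totals alone, 3 with no filter, 2 with either limma fit, and 0 with GC content and length corrected for.

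Same-numbered libraries had deviations from their group means correlated at 0.084 to 0.11 (Silica and Control), -0.11 to -0.0041 (Silica + ATL-III and Silica) and -0.088 to -0.062 (Silica + ATL-III and Control). Differently numbered libraries were not set beside them, so whether the replicate numbers pair the libraries cannot be decided from these values. With the replicate block the 1 lower gene of Silica against Control became 0, all genes called numbered 2120, 2822 and 2109 (Silica against Control, Silica + ATL-III against Silica, Silica + ATL-III against Control), and 2 of 3, 12 of 16 and 8 of 11 calls of the 40 genes were kept. Library totals alone shifted the median log2 fold change of all genes by -0.12 for Silica + ATL-III against Control, by -0.099 for Silica against Control and by -0.020 for Silica + ATL-III against Silica. With limma on FPKM the shifts were -0.12, -0.095 and -0.019 in the same order. Under all settings other than leaving out a library, 7 of the 16 calls against Silica, 3 of the 11 of Silica + ATL-III against Control and 2 of the 3 of Silica against Control were kept. Counts of the 40 genes ran from 119 to 11240 per gene and library, and with 3 libraries a group a single library could decide whether a fold change near the threshold was called.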
